A study of Ovis aries with 19 samples.

Results

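Autophagy and lysosomal protease genes were followed in liver and skeletal muscle of female sheep. The set was chosen by gene name: the numbered ATG genes, ULK1, ULK2 and ULK3, BECN1, SQSTM1, the MAP1LC3 and GABARAP genes, WIPI1 and WIPI2, LAMP1 and LAMP2, TFEB and the cathepsins. A mean normalized read count of at least 10 in liver or muscle was also asked for, and it was met by 44 of 46 genes with such names, out of 28524 gene identifiers in all. ATG9B, with a larger tissue mean of 7.18, and MAP1LC3C, with 0.848, fell below that minimum, and the lowest gene above it was CTSL, with 47.6. The groups were prenatal testosterone (prenatal T) liver from 5 ewes, control liver from 4, prenatal T muscle from 5 and control muscle from 5. The animals numbered 10, and 9 of them gave both tissues; control sheep 132 gave muscle only. The labels gave neither breed, age, testosterone dose nor which muscle was taken, and each library was 1 animal.

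In macroautophagy a membrane grows around a portion of the cell, closes into an autophagosome and fuses with a lysosome, where proteases and other hydrolases break the contents down. A kinase complex around ULK1 starts the process, a lipid kinase complex around BECN1 marks the membrane, and a ubiquitin-like conjugation system attaches the ATG8 proteins, the MAP1LC3 and GABARAP proteins, to it. In liver autophagy supplies amino acids and consumes lipid droplets and glycogen during fasting, and in muscle it removes worn mitochondria and proteins. Cathepsins are the proteases of the lysosome, and several of them are known mainly from macrophages and lymphocytes.

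The tissue labels were borne out by defining markers. ALB, which encodes albumin, had 112956 normalized reads or more in each liver and no more than 16.2 in any muscle, and ACTA1, the actin of skeletal muscle, had no more than 9.12 in any liver and 154279 or more in each muscle. Total reads ran from 10236610 to 16046301 per liver library and from 8455563 to 14331578 per muscle library. In liver, 3 libraries stood apart from the rest: control 179, treated 185 and treated 255. The SD of the members' log2 deviations from their group mean was 0.71, 0.66 and 0.60 in these, and at most 0.42 in the other liver libraries. Over all 13640 liver genes the same libraries had 0.72, 0.74 and 0.73, and the others at most 0.55. The first principal component of the deviations held 69.7% of the members' variance in liver and 35.6% in muscle, against 45.9% and 22.6% over all genes tested. On it control 179 and treated 255 lay at one end in liver, with scores of 0.57 and 0.41, and treated 185 at the other, with -0.52. ATG5, ATG12 and LAMP2 were above their group means in control 179 and treated 255 and below them in treated 185, while TFEB, ATG4B, ATG4D and ATG2A lay the other way round. Each group of liver libraries therefore held at least 1 sheep that stood apart, and liver results are also given without these 3 libraries.

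**Figure D1:**
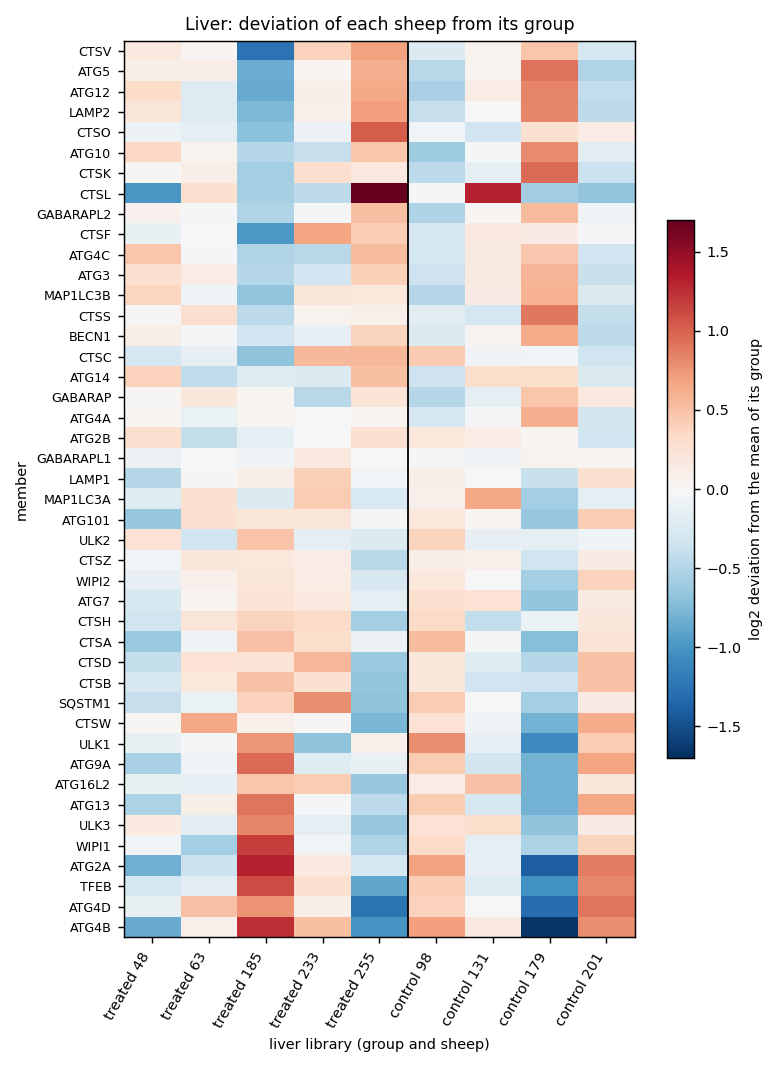
Log2 deviation of each member (rows) from the mean of its own group in each liver library (columns, treated sheep left of control sheep, divided by the line). Control 179 and treated 255 share their colours over most rows and treated 185 has the opposite ones, with SDs over the members of 0.71, 0.60 and 0.66.

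Both control tissues were compared first, to show where each gene was expressed. Reads recovered from the deposited values were put on 1 scale for this, and levels and differences of this comparison are on that joint scale. In each sentence control liver values come from sheep 98, 131, 179 and 201, and control muscle values from sheep 98, 131, 132, 179 and 201. The test called 34 of 43 members, 79.1%, against 63.3% of all 11685 genes tested; 18 were higher in control liver, 41.9% against 29.9% of all genes, and 16 were higher in control muscle, 37.2% against 33.4%. The groups did not overlap for 24 members, 55.8%, against 54.2% of all genes. Direction is given by role, which was not tested. Conjugation genes and cathepsins were called higher in liver wherever they were called, with 5 of 6 and 9 of 12 members. The initiation, lipid kinase, lipid supply and ATG4 genes were called higher in muscle wherever they were called, with 4 of 5, 3 of 4, 2 of 3 and 3 of 4. The ATG8 genes and SQSTM1 were split, with 3 called in each direction, and so were TFEB and the LAMP genes, with 1 in each. The median log2 difference of the members was -0.07, the same as over all genes to that precision. The numbers in the labels' library descriptions run separately for liver and for muscle, so tissue and library handling cannot be told apart.

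**Figure D2:**
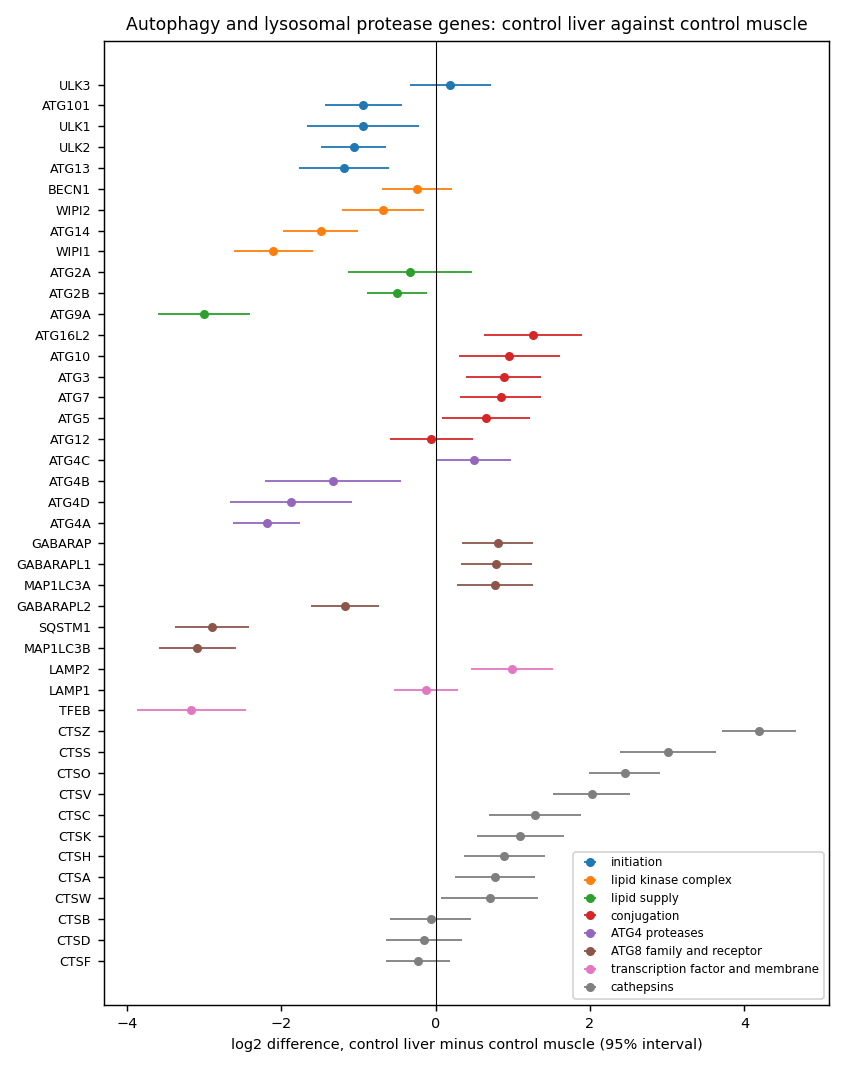
Log2 difference of each of 43 members, control liver (n = 4) minus control muscle (n = 5), with 95% intervals and coloured by role. Points right of 0 are higher in control liver: the cathepsins reach 4.19 (CTSZ), and TFEB, MAP1LC3B and ATG9A lie at -3.16, -3.09 and -3.00.

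TFEB, the transcription factor that switches on lysosomal and autophagy genes, was among the members furthest towards muscle. It had 79.96, 51.1, 28.3 and 108 in control liver, against 591, 384, 547, 575 and 656 in control muscle, a level 8.23 times as high in control muscle and a log2 difference of -3.16 ± 0.33 (SE), adjusted p = 1.4e-06. SQSTM1, the receptor that binds ubiquitin-tagged cargo and ATG8 proteins, had 1127, 838, 558 and 951 in control liver, against 6344, 5156, 5480.2, 7112 and 7543 in control muscle, which was 7.28 times as high in muscle (-2.89 ± 0.22 (SE), adjusted p = 7.18e-08). For both genes the highest liver value lay below the lowest muscle value.

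The ATG8 family was split between the tissues. MAP1LC3B, whose protein is the usual marker of autophagosomes, had 90.4, 141, 190.1 and 111 in control liver, against 1301, 877, 1142, 973 and 1235 in control muscle, 8.31 times as high in muscle (-3.09 ± 0.23 (SE), adjusted p = 4.82e-08). GABARAPL2 had 426, 629, 881 and 605 in control liver, against 1436, 1351, 1355, 1341 and 1447 in control muscle (-1.17 ± 0.20 (SE), adjusted p = 0.000189). Neither gene's groups overlapped. The other measured ATG8 genes were higher in liver. GABARAP had 2660.1, 3359, 5113 and 4298 in control liver, against 2329, 2267, 2405, 1918 and 1866 in control muscle (0.80 ± 0.21 (SE), adjusted p = 0.00455), and GABARAPL1 had 745, 735, 794 and 804 in control liver, against 580.5, 336, 399.6, 364 and 618 in control muscle (0.79 ± 0.21 (SE), adjusted p = 0.00527). MAP1LC3A had 841, 1249, 525 and 734 in control liver, against 461, 529.9, 482, 421 and 452 in control muscle (0.77 ± 0.23 (SE), adjusted p = 0.00925), and control 179 was the liver library that reached into the muscle range. MAP1LC3C, below the minimum in both tissues, had 0 reads in 13 of 19 libraries and at most 4.36 normalized reads in the others.

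**Figure D3:**
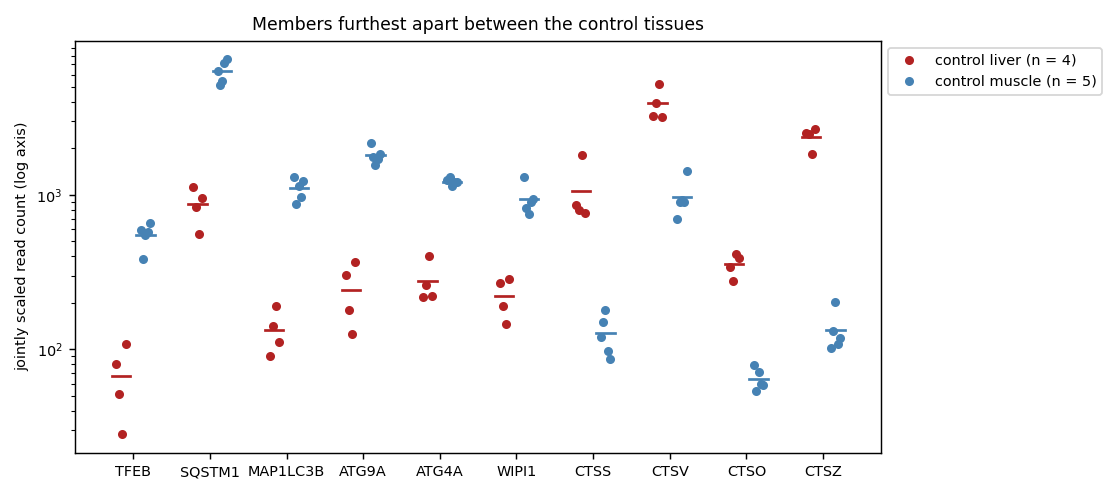
Jointly scaled read count (log axis) of the 10 members with a log2 difference over 2 in either direction, for each control sheep, with control liver (n = 4) left of control muscle (n = 5) and lines at the means. TFEB, SQSTM1, MAP1LC3B, ATG9A, ATG4A and WIPI1 are higher in muscle, CTSS, CTSV, CTSO and CTSZ in liver, and no pair of groups overlaps.

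Genes that start autophagy were higher in muscle. ULK1, the kinase that starts it, had 1323, 695, 358 and 1065 in control liver, against 2127, 1371, 992, 1433 and 1722 in control muscle (-0.94 ± 0.34 (SE), adjusted p = 0.0249), and both control groups overlapped. Its call was lost by edgeR and without sheep 131 or 179, with an adjusted p of up to 0.084. ULK2, its close relative, had 491, 342, 334 and 368 in control liver, against 997, 744, 629, 804 and 833 in control muscle (-1.06 ± 0.19 (SE), adjusted p = 0.000291). The complex partners ATG13, with 472, 286, 199 and 568 in control liver, against 816, 694, 773, 793 and 938 in control muscle (-1.18 ± 0.27 (SE), adjusted p = 0.00172), and ATG101, with 129, 118, 71.6 and 156 in control liver, against 223, 218, 239, 210.4 and 209 in control muscle (-0.93 ± 0.23 (SE), adjusted p = 0.00287), did not overlap between tissues. ULK3, a more distant kinase, was not called, with means of 186 ± 51.2 in control liver (SD, n = 4) and 159 ± 27.7 in control muscle (SD, n = 5).

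In the lipid kinase group, BECN1, the scaffold of the complex, was not called. It had 646, 784, 1158 and 569 in control liver, against 967, 976, 823, 872 and 868 in control muscle, and the liver range, set by control 179, enclosed the muscle range (-0.24 ± 0.21 (SE), adjusted p = 0.334). Without sheep 179 its difference was -0.46, adjusted p = 0.0367. ATG14, which directs the complex to autophagy, had 119.6, 189.7, 187 and 133 in control liver, against 425, 343, 395, 434 and 624 in control muscle (-1.49 ± 0.23 (SE), adjusted p = 5.63e-05). WIPI1 and WIPI2 bind the lipid that the complex makes. WIPI1 had 269, 191, 146 and 286 in control liver, against 1299.9, 823, 749, 900.0 and 939 in control muscle (-2.10 ± 0.24 (SE), adjusted p = 3.34e-06), 4.23 times as high in muscle. WIPI2 had 321, 286, 188 and 383 in control liver, against 441, 327, 533, 408 and 633 in control muscle (-0.68 ± 0.25 (SE), adjusted p = 0.0276), with overlapping groups, and lost its call without sheep 98, 132 or 179 (adjusted p up to 0.0652).

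Among genes that bring lipid to the growing membrane, ATG9A, a lipid scramblase carried on vesicles, had 301, 180.4, 126 and 367 in control liver, against 2173, 1761, 1553, 1707 and 1848 in control muscle, 7.42 times as high in muscle (-3.00 ± 0.28 (SE), adjusted p = 4.06e-07). ATG2B, a lipid transfer protein, had 334, 324, 299 and 241 in control liver, against 484, 406, 366, 412 and 438 in control muscle (-0.50 ± 0.18 (SE), adjusted p = 0.0273), and the call was lost with the sheep as a block, at an adjusted p = 0.0589, and without sheep 98, 131 or 201, at up to 0.132. Its partner gene ATG2A was not called. It had a mean of 435 ± 248 in control liver (SD, n = 4) and 464 ± 52.5 in control muscle (SD, n = 5), a spread that came from control 179 at 136 and control 201 at 685.

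The ATG4 proteases trim newly made ATG8 proteins and later release them from membranes. ATG4A had 219, 262, 401 and 220.5 in control liver, against 1241, 1305, 1139, 1204 and 1209 in control muscle, 4.42 times as high in muscle (-2.19 ± 0.20 (SE), adjusted p = 4.35e-07). ATG4D had 71.6, 54.2, 21.2 and 106 in control liver, against 265, 203, 207, 193 and 157 in control muscle (-1.87 ± 0.37 (SE), adjusted p = 0.000525) and ATG4B had 182, 126, 34.5 and 199.5 in control liver, against 301, 274, 277, 241 and 337 in control muscle (-1.33 ± 0.41 (SE), adjusted p = 0.011). Each of these had its lowest value in the liver of control 179 or, for ATG4A, its highest liver value there, and the groups did not overlap. ATG4C had means of 263 ± 67.5 in control liver (SD, n = 4) and 184 ± 30.1 in control muscle (SD, n = 5), in the other direction, and was not called (adjusted p = 0.0681).

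Of the conjugation genes, 5 of 6 were called higher in liver. ATG7, the activating enzyme, had 215, 209.6, 111 and 202 in control liver, against 119, 107, 93.2, 101 and 79.1 in control muscle (0.84 ± 0.24 (SE), adjusted p = 0.00815). ATG3, which transfers ATG8 proteins to lipid, had 418, 595, 789 and 422 in control liver, against 279, 264, 369, 257 and 299.9 in control muscle (0.88 ± 0.22 (SE), adjusted p = 0.00343), and ATG10, which transfers ATG12 to ATG5, had 59.1, 89.7, 157 and 82.5 in control liver, against 33.3, 54.9, 63.5, 44.2 and 42.1 in control muscle (0.96 ± 0.31 (SE), adjusted p = 0.0138). ATG3 values did not overlap between tissues, and those of ATG7 and ATG10 did. ATG5 had 379.6, 548, 992 and 378 in control liver, against 298, 313, 322, 382 and 369 in control muscle (0.66 ± 0.27 (SE), adjusted p = 0.0438), and control 179 held the highest value. Its call was lost with no minimum, with scaling to total reads and without sheep 131, 132 or 179 (adjusted p up to 0.142), that of ATG7 without 201 (0.0551) and that of ATG10 without 179 (0.0602). ATG16L2, a relative of the protein that places the conjugation machinery on the membrane, had 106, 138, 54.8 and 115 in control liver, against 39.02, 29.5, 45.1, 49.6 and 40.8 in control muscle (1.26 ± 0.29 (SE), adjusted p = 0.00189), without overlap. ATG12 was not called, with means of 830.2 ± 377 in control liver (SD, n = 4) and 806 ± 63.1 in control muscle (SD, n = 5).

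Of the lysosomal membrane proteins, LAMP2, needed for fusion and for chaperone-mediated autophagy, had 3281, 4292, 7590.2 and 3239 in control liver, against 2064, 1898, 2340.5, 2203 and 2385 in control muscle (0.99 ± 0.25 (SE), adjusted p = 0.00287), without overlap. LAMP1 was not called and had 2273, 2128, 1615 and 2616 in control liver, against 2805, 2256, 2421, 2162 and 2037 in control muscle (-0.13 ± 0.19 (SE), adjusted p = 0.584).

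CTSZ, CTSS, CTSO and CTSV had the largest differences of the cathepsins, all higher in liver. CTSZ, a carboxypeptidase, had 2534, 2494, 1849.6 and 2675 in control liver, against 102, 131, 202, 109 and 119 in control muscle, 18.0 times as high in liver (4.19 ± 0.22 (SE), adjusted p = 1.69e-09). CTSS, which trims the invariant chain in antigen-presenting cells, had 862, 799.6, 1821 and 767 in control liver, against 119.9, 149.5, 179, 98.2 and 86.8 in control muscle, 8.38 times as high (3.01 ± 0.29 (SE), adjusted p = 6.76e-07), with control 179 far above the other livers. CTSO had 340.0, 278, 417 and 393 in control liver, against 78.99, 53.9, 71.7, 59.4 and 58.7 in control muscle (2.45 ± 0.21 (SE), adjusted p = 2.34e-07), and CTSV, a relative of cathepsin L in human, had 3262, 3967, 5241 and 3197 in control liver, against 698, 906, 926, 898 and 1437 in control muscle (2.02 ± 0.23 (SE), adjusted p = 3.66e-06). The groups did not overlap for any of these. CTSV was the name without an entry in the sheep gene table. Its reads may be shared with CTSL and other relatives, which was not tested and bears on all its values.

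Smaller differences were found for the next cathepsins. CTSC, which activates proteases of immune cell granules, had 2830.4, 1999.6, 1984 and 1689 in control liver, against 702, 1740.1, 781, 655 and 726 in control muscle (1.29 ± 0.28 (SE), adjusted p = 0.00109), and control muscle of sheep 131 overlapped the livers. CTSK, the collagen-degrading protease of osteoclasts, had 356, 434, 941 and 387 in control liver, against 229, 238, 218, 255 and 200.4 in control muscle (1.10 ± 0.26 (SE), adjusted p = 0.00232), without overlap. CTSH, an aminopeptidase, had 267, 159.5, 195 and 250.0 in control liver, against 81.8, 120.0, 163, 111 and 112 in control muscle (0.89 ± 0.24 (SE), adjusted p = 0.00546), and CTSA, which also protects lysosomal glycosidases, had 1209.8, 810.1, 497 and 999 in control liver, against 507, 577, 427, 501 and 451 in control muscle (0.77 ± 0.24 (SE), adjusted p = 0.0123). The ranges of both overlapped between tissues, and CTSA lost its call without sheep 98 or 201 (adjusted p up to 0.0723). CTSW, known from T and NK cells in human and mouse, had 106, 85.5, 50.4 and 144 in control liver, against 61.9, 54.9, 60.5, 52.9 and 47.2 in control muscle (0.70 ± 0.29 (SE), adjusted p = 0.049). Its call was lost with the sheep as a block, at an adjusted p = 0.0572, with no minimum, with scaling to total reads and without sheep 98, 131, 132 or 201, with the highest adjusted p, 0.265, without 201.

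CTSB, CTSD and CTSF were not called between the tissues. CTSB had 2395, 1665, 1638 and 3043 in control liver, against 2260.1, 1509, 2831, 1992 and 2739 in control muscle, a log2 difference of -0.07 with a 95% interval of -0.60 to 0.46. CTSD, the aspartic protease, had 2407, 1835, 1493 and 3051 in control liver, against 2507, 1781, 2457, 2427 and 2689 in control muscle, a difference of -0.15 with an interval of -0.64 to 0.34. CTSF had a difference of -0.23 ± 0.19 (SE). CTSL fell below the minimum in muscle and was not tested. It had 39.6, 102, 26.5 and 25.9 in control liver, against 7.61, 12.2, 7.17, 3.24 and 2.55 in control muscle. Its reads may not have been told apart from those of cathepsin L relatives such as CTSV, which was not tested.

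Cell type markers were compared between the control tissues too. Of the 12 tested cathepsins, 9 were called higher in control liver, and CTSB, CTSD and CTSF were not called. All 10 of 10 tested macrophage and Kupffer cell markers were called higher in control liver, with a median log2 difference of 3.01. So were 7 of 10 tested T and NK cell markers, with a median of 1.12, against 29.9% of all genes tested. None of the macrophage or T and NK cell markers in the data was at 0 throughout a tissue. In bulk samples like these, fewer cells of a type and less RNA per cell cannot be told apart, and the part of either in the cathepsin differences was not tested. Without the cathepsins, 9 of the remaining 31 members were called higher in control liver, against 29.9% of all genes. In control muscle 16 of them were called higher, against 33.4% of all genes.

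Other genes of the pathway were counted from lists, over those that passed the minimum in both tissues; 29.9% of all genes tested were called higher in control liver and 33.4% higher in control muscle, with a median of -0.07. Of 29 genes that control autophagy by nutrients, 2 were called higher in control liver and 20 higher in control muscle, with a median of -0.90. RRAGD, a GTPase that recruits mTORC1 to the lysosome, averaged 19.3 ± 11.3 in control liver (SD, n = 4) and 1930.5 ± 257 in control muscle (SD, n = 5), and MITF, a relative of TFEB, averaged 191 ± 49.1 in control liver (SD, n = 4) and 2007 ± 514 in control muscle (SD, n = 5). Of 17 receptors of selective autophagy and mitophagy, 3 were higher in liver and 8 in muscle, with BNIP3, a mitophagy receptor, at -4.53 ± 0.25 (SE) and RETREG1, a receptor for the endoplasmic reticulum, at -6.21 ± 0.44 (SE). Lysosomal hydrolases other than cathepsins lay the other way: 20 of 34 were higher in liver and 1 in muscle, with a median of 0.83. GUSB, beta-glucuronidase, had a difference of 4.76 ± 0.29 (SE), and LIPA, the acid lipase, 2.89 ± 0.29 (SE). Of 25 lysosomal membrane proteins and transporters, 9 were higher in liver and 3 in muscle, with SORT1, a sorting receptor, at -4.03 ± 0.25 (SE) and NPC2, a cholesterol carrier, at 1.88 ± 0.19 (SE). Of 17 subunits of the vacuolar proton pump, 8 were higher in liver and 4 in muscle, and of 16 initiation and lipid kinase partners 5 and 5. ATP6V1B2, a pump subunit, stood at -1.67 ± 0.19 (SE) and ATP6V0E1 at 1.25 ± 0.18 (SE), while VAMP8, a fusion protein, stood at 4.38 ± 0.32 (SE) and RB1CC1, the scaffold of the ULK1 complex, at -2.15 ± 0.18 (SE). Of 7 cystatins in the table, which inhibit cysteine cathepsins or are related to such inhibitors, 2 passed the minimum in both tissues, and neither was called; CST6 had a difference of 0.12 ± 0.37 (SE) and CST3 0.01 ± 0.22 (SE). KNG1, AHSG and FETUB, plasma proteins made by the liver, passed the minimum in liver alone and were not tested here; their deposited levels averaged 14386, 33615 and 1825 in control liver.

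The next comparison asked whether prenatal testosterone altered these genes in liver. None of the 44 members passed, against 0.00733% of 13640 genes tested. None had an unadjusted p under 0.05 either, against 3.99% of all genes, and none had groups that did not overlap, against 1.54%. By edgeR and by DESeq2 0 members passed as well, and DESeq2 called 0.235% of all genes. The log2 differences, prenatal T minus control, ran from -0.47 (ATG9A) to 0.40 (CTSW) with a median of -0.04, against 0.00 over all genes. The median half-width of the 95% intervals was 0.66, a 1.58-fold change; these intervals are not adjusted for the number of genes. Values below are in the order of sheep 48, 63, 185, 233 and 255 for treated animals and 98, 131, 179 and 201 for control liver.

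The largest positive differences were those of CTSW, CTSS, CTSV, ATG12 and ATG10. CTSW had 112, 173, 117, 112 and 63.9 in treated liver, against 98.9, 79.4, 47.3 and 130.2 in control liver (0.40 ± 0.35 (SE)). T and NK cell markers lay the same way, with 12 of 12 tested above 0, against 6875 of 13640 genes. Their summed level was 482 to 883 in treated liver, against 383 to 569 in control liver. Control 179, lowest for CTSW at 47.3, had a sum of 505, while control 131, with 79.4, had the lowest sum, 383. The part of these cells in the CTSW values was not tested. CTSS had 1144, 1366, 828, 1179.6 and 1198 in treated liver, against 802, 743, 1708 and 693 in control liver (0.30 ± 0.29 (SE)). Control 179 was the highest of all livers, and every treated value lay above those of the other 3 controls. CTSV had 5074, 4622, 1903, 5934 and 7263 in treated liver, against 3034, 3685, 4916 and 2889 in control liver (0.35 ± 0.36 (SE)), with treated 185 the lowest of all livers. ATG12, the ubiquitin-like protein joined to ATG5, had 1108, 773, 495, 969.8 and 1401 in treated liver, against 489.5, 783, 1273 and 538 in control liver (0.32 ± 0.35 (SE)), and ATG10 had 132, 108, 73.2, 78.1 and 144 in treated liver, against 54.97, 83.3, 148 and 74.6 in control liver (0.29 ± 0.33 (SE)). Both treated and control ranges of ATG12 and ATG10 were wide and overlapped nearly throughout.

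On the other side ATG9A had 101, 141, 292, 129.5 and 137 in treated liver, against 280.0, 168, 119 and 332 in control liver (-0.47 ± 0.37 (SE)), with treated 185 well above the other treated sheep. CTSD had 1158, 1822, 1807, 2277 and 998 in treated liver, against 2239, 1705, 1401 and 2757 in control liver (-0.35 ± 0.30 (SE)), ATG7 112, 139, 159.7, 153 and 121 in treated liver, against 199.8, 195, 104 and 183 in control liver (-0.28 ± 0.26 (SE)) and LAMP1 1192, 1689, 1812, 2221 and 1617 in treated liver, against 2114, 1977, 1515 and 2364 in control liver (-0.23 ± 0.24 (SE)). The lowest value of CTSD and LAMP1 was that of a treated sheep and the lowest of ATG7 that of control 179. TFEB had 33.02, 35.9, 89.6, 49.2 and 21.7 in treated liver, against 74.4, 47.5, 26.5 and 97.9 in control liver (-0.42 ± 0.46 (SE)), and treated 255 and control 179 held the lowest values of their groups.

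The ATG8 genes of the liver showed small differences. MAP1LC3B had 173, 127, 83.5, 154 and 152 in treated liver, against 84.1, 131, 178 and 100.2 in control liver (0.18 ± 0.30 (SE)) and MAP1LC3A 553, 757, 539.9, 861 and 533 in treated liver, against 782, 1160.2, 493 and 663 in control liver (-0.21 ± 0.28 (SE)). GABARAP had 3973, 4481, 3987, 2818 and 4557 in treated liver, against 2474, 3120.5, 4796 and 3884 in control liver (0.17 ± 0.26 (SE)). GABARAPL1 varied least of all members between sheep, with 633, 685, 653, 764 and 677 in treated liver, against 693, 683, 745 and 727 in control liver (-0.06 ± 0.19 (SE)), while GABARAPL2 had 685, 636, 457, 636 and 935 in treated liver, against 396, 584, 827 and 546 in control liver (0.20 ± 0.27 (SE)). SQSTM1 had 573, 695, 982, 1297 and 467 in treated liver, against 1048, 779, 523 and 859 in control liver (-0.05 ± 0.32 (SE)), so that its highest and its lowest liver value both came from treated animals.

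Of the central regulators, ULK1 had 524, 567, 966, 355 and 609.9 in treated liver, against 1231, 646, 336 and 963 in control liver (-0.31 ± 0.38 (SE)) and BECN1 743, 669, 547, 621 and 895 in treated liver, against 601, 728, 1086 and 514 in control liver (-0.04 ± 0.26 (SE)). In BECN1 control 179 was the highest liver and control 201 the lowest. LAMP2 had 5095, 3787, 2595, 4685 and 7148 in treated liver, against 3052, 3987, 7119 and 2927 in control liver (0.15 ± 0.34 (SE)), with treated 255 and control 179 at nearly the same level above the rest. CTSB had 1728, 2366, 2938, 2502 and 1309 in treated liver, against 2228, 1547, 1537 and 2750.0 in control liver (0.09 ± 0.29 (SE)) and CTSK 459, 482, 301, 550.2 and 508 in treated liver, against 331, 403, 882 and 349 in control liver (0.00 ± 0.31 (SE)), and both groups overlapped. CTSL had 18.9, 46.7, 25.8, 27.8 and 129 in treated liver, against 36.9, 94.9, 24.9 and 23.4 in control liver (0.02 ± 0.57 (SE)). Without treated 255 the treated mean of CTSL was 29.8 in place of 49.6, and without control 131 the control mean was 28.4 in place of 45.0.

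Without control 179, treated 185 and treated 255, a choice made after the data had been seen, 9 liver members had an unadjusted p under 0.05, against 16.2% of all genes, and none passed after adjustment. Of these, 3 were higher, CTSS (0.72), CTSV (0.70) and ATG12 (0.67), and 6 lower, ATG9A (-1.02), ULK1 (-0.95), ATG4B (-0.91), ATG2A (-0.85), TFEB (-0.84) and CTSA (-0.64). Their adjusted p-values ran from 0.219 to 0.304.

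In the liver lists none of the other pathway genes passed. Over all genes 3.99% had an unadjusted p under 0.05. Of 34 hydrolases, 2 did, ARSB, a sulfatase (-0.78 ± 0.35 (SE)), and SGSH, another sulfatase (-0.55 ± 0.25 (SE)), both below control. Of 17 selective receptors, 1 did, TAX1BP1, a cargo receptor, with 2769 ± 815 in treated liver (SD, n = 5) and 1499 ± 541 in control liver (SD, n = 4) (0.89 ± 0.29 (SE), adjusted p = 0.928). None did among 29 nutrient control genes, 16 initiation partners, 25 membrane proteins, 17 pump subunits and 5 cystatins. Of 6 tested adipocyte markers 3 were lower at such a p, with a median of -0.83 and a summed level of 629 to 2372 in treated liver, against 1023 to 1725 in control liver; their part in the members' values was not tested.

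In muscle the same question was asked of 43 members, since CTSL was below the minimum. None passed, against 0.00771% of 12966 genes tested. At an unadjusted p under 0.05, 6 members were listed, 14.0% against 14.4% of all genes, 3 higher and 3 lower in prenatal T muscle. The groups did not overlap for 3 members, 6.98%, against 3.29% of all genes. The median log2 difference was -0.05, against -0.01 over all genes, and the median half-width of the 95% intervals was 0.33, a 1.26-fold change. In the lists of values, control muscle comes from sheep 98, 131, 132, 179 and 201.

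**Figure D4:**
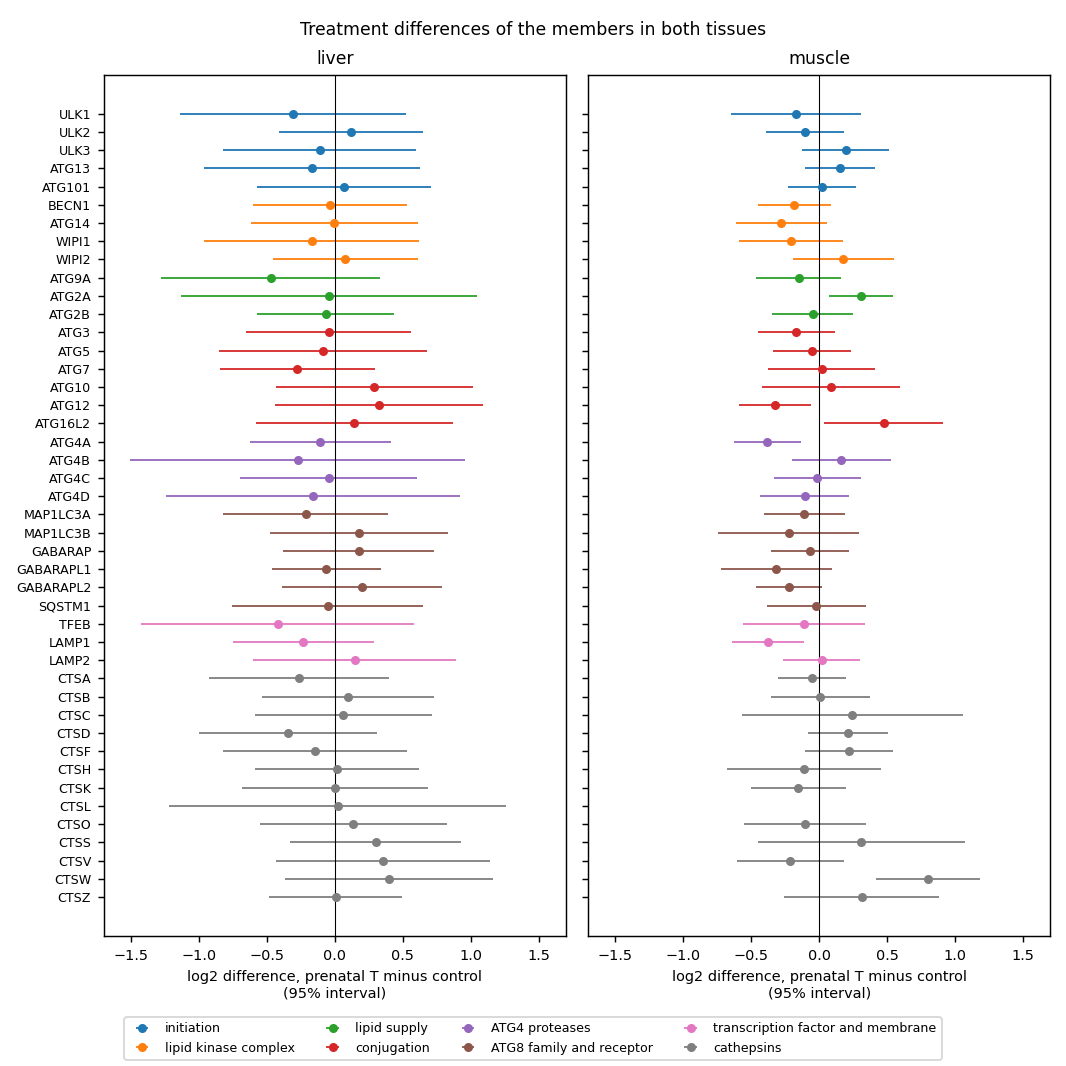
Log2 difference, prenatal T minus control, of the members in liver (left, n = 5 and 4) and muscle (right, n = 5 and 5) with 95% intervals, coloured by role. All 44 liver intervals include 0; in muscle those of CTSW, ATG2A and ATG16L2 lie above 0 and those of ATG4A, LAMP1 and ATG12 below it, before adjustment for 12966 genes.

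The member with the smallest p in muscle was CTSW, the cathepsin of T and NK cells. It had 132, 126, 94.5, 93.7 and 78.6 in treated muscle, against 64.5, 58.5, 64.9, 56.9 and 50.6 in control muscle, averaging 105 ± 22.96 in treated muscle (SD, n = 5) and 59.1 ± 5.93 in control muscle (SD, n = 5), a ratio of 1.78. Each treated sheep lay above every control. The log2 difference was 0.80 ± 0.18 (SE), adjusted p = 0.135. CTSW was past the threshold by DESeq2, with an adjusted p of 0.0110, where 2% of muscle genes were called, and not by edgeR, at 0.119. Without 1 library at a time the limma adjusted p ran from 0.0914 to 0.287. The highest adjusted p of CTSW over 19 settings of fit, scaling and libraries was 0.625. Summed T and NK cell markers ran from 238 to 405 in treated muscle with a median of 282, against 197 to 297 in control muscle with a median of 221, and 9 of 10 tested markers were above 0, against 6270 of 12966 genes. Of these LCK, a T cell signalling kinase, had the smallest p, with 32.1 ± 8.0 in treated muscle (SD, n = 5) and 17.8 ± 3.01 in control muscle (SD, n = 5) (0.80 ± 0.25 (SE), adjusted p = 0.196). Treated 185, with 94.5 for CTSW, had a marker sum of 238, while control 131, with 58.5, had 297. The part of these cells in the CTSW values was not tested. In liver CTSW had a difference of 0.40 with a 95% interval of -0.36 to 1.16.

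ATG2A and ATG16L2 were the other members above control. ATG2A, the lipid transfer protein, had 640.3, 640.1, 591, 566 and 612 in treated muscle, against 555, 489, 414, 513 and 499 in control muscle (0.31 ± 0.11 (SE), adjusted p = 0.247), and the lowest treated value lay just above the highest control. ATG16L2 had 69.00, 47.7, 55.97, 53.7 and 77.7 in treated muscle, against 40.7, 31.4, 48.4, 53.4 and 43.7 in control muscle (0.47 ± 0.20 (SE), adjusted p = 0.321), with overlap.

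ATG4A, LAMP1 and ATG12 lay below control. ATG4A, the protease that prepares and releases ATG8 proteins, had 989, 1216, 853, 957 and 1005 in treated muscle, against 1294, 1389, 1223, 1296 and 1295 in control muscle, averaging 1004 ± 132 in treated muscle (SD, n = 5) and 1299 ± 58.8 in control muscle (SD, n = 5) (-0.38 ± 0.11 (SE), adjusted p = 0.19). The highest treated sheep, 63, came close to the lowest control, 132, without overlap. LAMP1, an abundant protein of the lysosomal membrane, had 1628, 1992, 1876, 1876 and 2199 in treated muscle, against 2926, 2401, 2599.8, 2325 and 2182 in control muscle (-0.38 ± 0.12 (SE), adjusted p = 0.209), where treated 255 reached the lowest control. ATG12 had 819, 631, 616, 598 and 788 in treated muscle, against 887, 814, 888, 772 and 931 in control muscle (-0.32 ± 0.12 (SE), adjusted p = 0.27), where treated 48 and 255 lay among the controls and the other treated sheep below them. Over 19 settings of fit, scaling and libraries, CTSW, ATG4A and LAMP1 had an unadjusted p under 0.05 in all 19. ATG2A had one in 18 of these settings, ATG12 in 17 and ATG16L2 in 10.

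**Figure D5:**
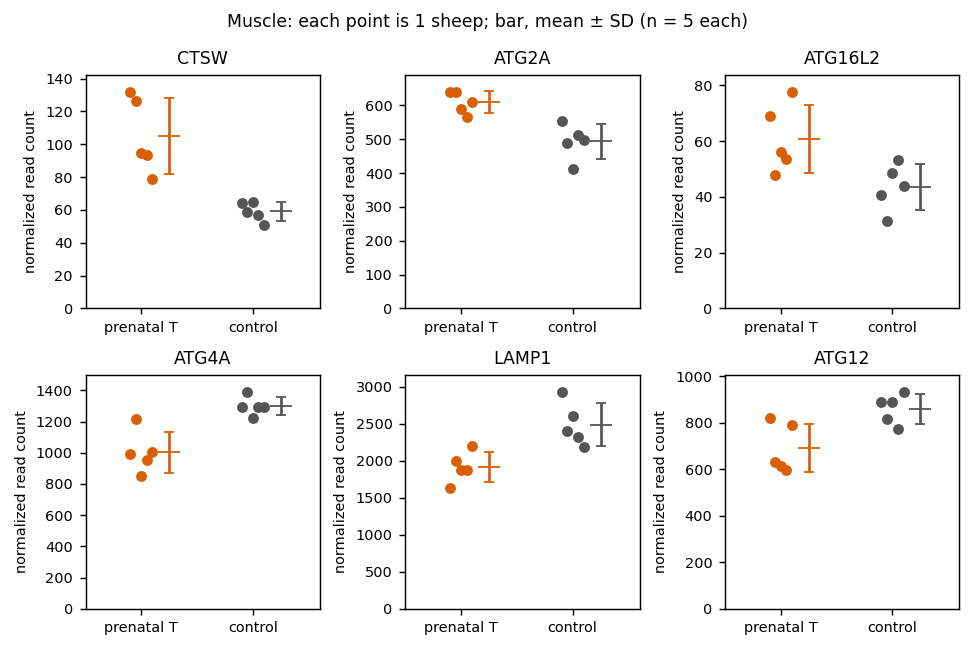
Normalized read count in muscle of the 6 members with an unadjusted p under 0.05, each point 1 sheep, prenatal T left of control, with mean ± SD (n = 5 each). CTSW, ATG2A and ATG4A do not overlap between groups; none of the 6 passed after adjustment, with adjusted p-values from 0.135 to 0.321.

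All measured ATG8 genes and SQSTM1 had negative muscle differences, from -0.32 to -0.02, where 26 of 43 members and 6696 of 12966 genes tested lay below 0. They kept that sign with TMM scaling, by edgeR and by DESeq2, which used the same reads, while without 1 library SQSTM1 ran from -0.10 to 0.07. None had an unadjusted p under 0.05. GABARAPL1 had 319.6, 499, 343, 347 and 424 in treated muscle, against 605, 357, 429, 391 and 662 in control muscle (-0.32 ± 0.19 (SE)). GABARAPL2 had 1323, 1261, 1087, 1181 and 1515 in treated muscle, against 1498, 1438, 1454, 1443 and 1550.4 in control muscle (-0.22 ± 0.11 (SE)), where treated 255 lay among the controls and the other treated sheep below them. MAP1LC3B had 1289.7, 903, 628, 756 and 1785 in treated muscle, against 1357, 933, 1226, 1047 and 1323 in control muscle (-0.22 ± 0.24 (SE)), and the treated range enclosed the control range. MAP1LC3A had 388, 541, 521, 528 and 364 in treated muscle, against 480.3, 564, 517, 453 and 484 in control muscle (-0.11 ± 0.14 (SE)) and GABARAP 2371, 1964, 1862, 2088 and 2744 in treated muscle, against 2429, 2413, 2582, 2063 and 1999 in control muscle (-0.07 ± 0.13 (SE)). SQSTM1 had 5025, 8188, 6197, 5999 and 7967 in treated muscle, against 6616, 5488, 5884, 7651 and 8079.9 in control muscle (-0.02 ± 0.17 (SE)), with wide overlap.

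Regulators in muscle overlapped between groups too. TFEB had 428, 827, 675, 455 and 399 in treated muscle, against 616, 409, 588, 619 and 703 in control muscle (-0.11 ± 0.21 (SE)), its highest and its lowest value both from treated sheep. ULK1 had 1018, 2169.7, 1194, 1661 and 1234 in treated muscle, against 2218, 1459, 1065, 1542 and 1844 in control muscle (-0.17 ± 0.22 (SE)), BECN1 838, 869, 712, 759.8 and 1082 in treated muscle, against 1008, 1039, 883, 938 and 929.7 in control muscle (-0.18 ± 0.13 (SE)) and ATG14 370.4, 452, 338, 404 and 356 in treated muscle, against 444, 365, 424, 467 and 669 in control muscle (-0.28 ± 0.16 (SE)). The lowest value of BECN1 and of ATG14 was that of treated 185. LAMP2 had 2667, 2013, 2043, 2254 and 2847 in treated muscle, against 2153, 2019.9, 2513, 2369.5 and 2555 in control muscle (0.02 ± 0.13 (SE)).

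Among the other cathepsins of muscle, CTSD had 3065, 3426, 2693, 2610.0 and 2756 in treated muscle, against 2614, 1895, 2638, 2611 and 2881 in control muscle (0.21 ± 0.14 (SE)) and CTSF 1333, 1432, 1034, 1026 and 1115 in treated muscle, against 1182, 759, 947, 1038 and 1202 in control muscle (0.22 ± 0.15 (SE)). Control 131 held the lowest value of both. CTSB had 2312, 2192, 2200.4, 2293 and 2920.3 in treated muscle, against 2357, 1606, 3039.8, 2143 and 2934 in control muscle (0.01 ± 0.17 (SE)) and CTSK 245, 165, 214, 302 and 188 in treated muscle, against 239, 253, 234, 274 and 215 in control muscle (-0.15 ± 0.16 (SE)). CTSS had 169, 104, 123, 458 and 112 in treated muscle, against 125, 159, 193, 106 and 92.97 in control muscle (0.31 ± 0.35 (SE)). Treated 233 was far above the rest, and without it the treated mean of CTSS was 127 in place of 193. The same library had the highest summed macrophage markers of all muscles, 1296, and the highest CTSZ, 336. The other treated muscles had macrophage sums from 428 to 700.03 and the controls from 445 to 1135. The highest control was 132, which also had the highest CTSS and CTSZ of the controls. In liver, treated 63 had the highest macrophage sum, 8982, with the highest treated CTSS, 1366, and the highest CTSZ, 2511. Control 179, with the highest liver CTSS, 1708, and the lowest control CTSZ, 1735, had a sum of 6200, inside the control range of 3722 to 7555. The part of these cells was not tested.

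Markers of other kinds were summed too. Skeletal muscle markers ran from 952001 to 1883700 in treated muscle and from 1838860 to 2140080 in control muscle, with 9 of 10 below 0, against 6696 of 12966 genes, and none at an unadjusted p under 0.05. Adipocyte markers ran from 1534 to 3169 in treated muscle and from 1869 to 3399 in control muscle. Of 7 tested, 6 were below 0, with a median log2 difference of -1.01 over the 7. An unadjusted p under 0.05 was found for 3 of these, where 7% of all genes were lower at such a p. The part of these in the members' values was not tested.

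Of the other pathway genes in muscle none passed. Of 29 nutrient control genes, 4 were lower and 0 higher at an unadjusted p under 0.05. FOXO3, a factor that switches on autophagy genes in muscle, averaged 2756 ± 262 in treated muscle (SD, n = 5) and 5195 ± 1716 in control muscle (SD, n = 5) (-0.86 ± 0.19 (SE), adjusted p = 0.135), and FOXO1 739 ± 306 in treated muscle (SD, n = 5) and 1133 ± 218 in control muscle (SD, n = 5) (-0.68 ± 0.24 (SE), adjusted p = 0.231). Of 17 selective receptors 5 were lower and 0 higher, among them NCOA4, the receptor for ferritin (-0.48 ± 0.13 (SE), adjusted p = 0.174), and CALCOCO2 (-0.27 ± 0.11 (SE), adjusted p = 0.283). Of 16 initiation partners 2 were higher and 1 lower, RB1CC1, with 1973 ± 349.9 in treated muscle (SD, n = 5) and 2802 ± 201 in control muscle (SD, n = 5) (-0.52 ± 0.13 (SE), adjusted p = 0.157). Of 35 hydrolases 2 were higher, IDUA (0.54 ± 0.15 (SE)) and ARSA (0.48 ± 0.15 (SE)), and 2 lower. Of 25 membrane proteins 3 were higher and 0 lower, with GNPTG at 0.32 ± 0.12 (SE), and of 17 pump subunits 3 were lower and 0 higher, with ATP6V1H at -0.36 ± 0.13 (SE). Of 2 cystatins CST3, the main secreted inhibitor of cysteine cathepsins, averaged 2287 ± 457 in treated muscle (SD, n = 5) and 1463 ± 186 in control muscle (SD, n = 5) (0.63 ± 0.15 (SE), adjusted p = 0.149). The share of all genes with such a p was 7.37% higher and 7% lower.

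The difference between the treatment effects of muscle and liver was tested itself. None of 43 members passed, against 0.00855% of 11697 genes, and none had an unadjusted p under 0.05, against 4.9%. The smallest p was that of ATG12, 0.0925, with a difference of -0.65 ± 0.37 (SE) that put a liver effect of 0.32 beside a muscle effect of -0.32. CTSD followed with 0.56 ± 0.32 (SE), from a liver effect of -0.35 and a muscle effect of 0.21. GABARAPL2 (-0.42 ± 0.28 (SE)), CTSV (-0.57 ± 0.40 (SE)), ATG4A (-0.27 ± 0.24 (SE)) and CTSF (0.37 ± 0.34 (SE)) came next. For CTSW the difference was 0.40 with a 95% interval of -0.41 to 1.21, so a larger effect in either tissue was not shown. Without the 3 liver libraries that stood apart, a choice made after the data had been seen, ATG12 passed, with a difference of -0.99, adjusted p = 0.0451. In that fit 1.86% of all genes passed, and 11 members had an unadjusted p under 0.05, against 22.3% of all genes. ATG12 was itself among the genes named above as deviating in these libraries. Leaving out libraries far from their group means narrows the spread within groups, so these p-values can come out too small and show no effect by themselves.

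The members varied less between sheep of a group in muscle than in liver. The median SD on the log2 scale was 0.24 over 43 members in muscle, against 0.48 over 44 members in liver, and that of all genes tested was 0.31 and 0.52. In liver the SD ran from 0.09 for GABARAPL1 to 1.03 for ATG4B, and in muscle from 0.11 for ATG101 to 0.75 for CTSC. In muscle the wide spread of CTSC came from treated 48 at 2285 and control 131 at 1852, with treated 185 lowest at 486.

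Counting could affect single members. In the sheep gene table, 11 of the genes with such names overlap another gene of the files, among them ATG4A with PSMD10, SQSTM1 with MRNIP and MGAT4B, CTSB with FDFT1, BECN1 with CNTD1 and ATG5 with CRYBG1. Since the strand setting of the counting was not given in the sources used here, reads of overlapping genes may not have been told apart. CTSW had no such neighbour.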

How the data were processed

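Total RNA of liver and muscle was made into TruSeq libraries, per the labels' protocols, with 1 library per sheep and tissue. The submitters' processing notes name Trimmomatic, STAR and featureCounts 1.6.1; genome build, annotation and strand setting are not given in the sources used here. Values were deposited as signal, a normalized read count per gene. Their scaling, read from the values, was the median of ratios within each tissue (relative difference at most 1.2e-10). Whole reads were recovered for 100% of values within 0.01 read. Depth and precision are given by the total reads above.

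Genes with a mean of at least 10 were tested on log2(value + 1), which understates changes of low genes, with limma 3.58.1 in R 4.3.3, a trend of variance on mean level, and a Benjamini-Hochberg threshold of 0.05 over all genes. Each tissue was fitted alone. The difference of effects used all 19 libraries, and the control tissues were compared after recovered reads had been put on 1 scale by the median of ratios. The factor from deposited to joint values was 1.05 to 1.11 in liver and 0.914 to 0.959 in muscle. Alternatives were edgeR 4.0.16, DESeq2 1.42.0, other pseudocounts (0.25 and 4), another minimum (50) or none, TMM, scaling to total reads, array weights, a joint fit of all 19 libraries, a sheep block, and leaving out each library or sheep. The fits were also run on simulated counts with known changes, drawn independently for each gene and library. Those counts held no libraries that stand apart and no pairing of sheep, so they do not bear on either.

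Libraries with the same sheep number are paired across tissues, being from 1 animal. Deviations of all 9 pairs correlated at over 0.1, with a median of 0.177, against -0.019 between different sheep. For 7 of these livers the most correlated muscle was that of the same sheep, and for those of 179 and 201 it was not. The members, lists and markers were chosen with earlier results of these data known. Values per library are given for members past the adjusted threshold, those with the smallest p per tissue and direction and for the difference, and a set of central members; of each list at most 2 genes are named per tissue. Gene overlaps came from an NCBI gene table (assembly ARS-UI_Ramb_v3.0, perhaps not the build used), where 45 of 46 names matched, and no coordinates or sequences are given.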

Additional observations from a re-analysis of the deposited data

Results flagged for a closer look

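In 16 of 174 combinations of gene and group, 1 library lay further from the others than Dixon's 95% limit allows. For independent, normally distributed values chance alone flags about 1 in 20. These were unlogged counts of genes that vary together, so that rate is a rough guide only. Of the flagged combinations 9 were in liver and 7 in muscle. The libraries that stood apart held 8 of the liver ones, and they had been singled out by the members' deviations, so this is no separate observation. In control liver, sheep 179 had 1708 for CTSS (other controls 693 to 802), 882 for CTSK (331 to 403) and 1735 for CTSZ (2317 to 2417), and sheep 98 had 457 for ULK2 (313 to 333). In treated liver, sheep 185 had 292 for ATG9A (101 to 141), 401 for WIPI1 (118 to 171) and 818 for ATG2A (186 to 369), and sheep 255 had 129 for CTSL (18.9 to 46.7) and 731 for CTSO (222 to 336).

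In treated muscle, sheep 233 had 458 for CTSS (other treated sheep 104 to 169) and 336 for CTSZ (125 to 172), and sheep 255 had 2920.3 for CTSB (2192 to 2312). In control muscle, sheep 131 had 1852 for CTSC (705 to 838) and 1895 for CTSD (2611 to 2881), sheep 98 had 138 for ATG4C (199.7 to 224) and sheep 132 had 256 for ATG101 (224 to 232). Beside the CTSS and CTSZ values of treated 233, its macrophage markers summed to 1296 and its fibroblast markers to 12397, the highest of all muscles in both; their part was not tested.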

How the results depend on the processing

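No member changed direction together with a call in any alternative. Of the 34 members called between the control tissues, 26 remained called in all alternatives run, and ATG5, CTSW, ATG2B, ULK1, WIPI2, CTSA, ATG7 and ATG10 lost the call in at least 1; without 1 control sheep at a time the count was 30 to 31, with 15 to 16 higher in liver and 14 to 15 in muscle. With the sheep as a replicate block 32 members were called, 17 higher in liver and 15 in muscle, and 0 for the difference of effects, with 0 at an unadjusted p under 0.05; the block changed no other call. By edgeR the median of all genes in the tissue comparison was 0.04, against -0.07 by limma, and with scaling to total reads it was -0.15. In liver the count of members at an unadjusted p under 0.05 was 0 of 44, against 3.99% of all genes. It became 3 with array weights, against 11.1% of all genes, and 0 to 2 without 1 library. It was 2 without control 179 (8.47% of all genes) and 1 without treated 185 (6.09%). Without the 3 libraries that stood apart it was 9, against 16.2% of all genes. In muscle that count was 6 of 43, against 14.4% of all genes. It became 3 with all 19 libraries in 1 fit and 5 to 8 without 1 library. DESeq2 called 1 muscle member, CTSW, against 2% of all genes. For the difference of effects the count at an unadjusted p under 0.05 was 0 of 43, against 4.9% of all genes. It became 5 with array weights, against 14.3%. Without 1 sheep it was 0 to 4, with 4 without 179 (12.5% of all genes), 2 without 185 (6.94%) and 1 without 233 (4.19%). Without the 3 libraries, chosen after the data had been seen, it was 11, against 22.3%, and 1 member, ATG12, was called, against 1.86% of all genes. Calls of members stayed at 0 without any 1 library in liver, muscle and the difference. Over all genes DESeq2 called 32 in liver, 259 in muscle and 14 for the difference, where limma called 1, 1 and 1. The cause of these changes was not tested. The 4 or 5 animals per group limit the precision: the median half-width of the members' unadjusted 95% intervals was 1.58-fold in liver and 1.26-fold in muscle, and the adjusted test asks for more.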
